A study of Homo sapiens with 6 samples.

Results

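The genes described here are 34 listed genes of the endoplasmic reticulum (ER), out of 29476 genes in the count table, chosen by symbol as ER chaperones, folding enzymes, stress sensors and genes of ER-associated degradation. Of these, 12 encode chaperones or cochaperones, 5 encode enzymes of disulfide formation and folding, 6 encode stress sensors or transcription factors, 9 act in ER-associated degradation and 2 encode other ER membrane proteins. The ER folds secreted and membrane proteins, and when unfolded proteins build up in it 3 membrane sensors signal to the nucleus. IRE1 (ERN1) splices the mRNA of XBP1, PERK (EIF2AK3) phosphorylates a translation initiation factor and thereby favours translation of ATF4, and ATF6 is cut to release a transcription factor. Their outputs are known to raise chaperones such as BiP (HSPA5) and the machinery that returns misfolded proteins to the cytosol for degradation by the proteasome, which matters in secretory cells such as those of the lung epithelium. A count of reads per gene does not separate spliced from unspliced XBP1 mRNA, phosphorylated from unphosphorylated IRE1 or PERK, or cut from uncut ATF6.

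The study measured polyadenylated RNA in A549 cells, a human lung adenocarcinoma line, after silencing of DDX17, an RNA helicase that acts in transcription and splicing. All 6 libraries came from cells transfected with siRNA by a lipid reagent and grown in the same serum-containing medium, 3 with a nontargeting siRNA (siCtrl 1, 2 and 3) and 3 with a single DDX17 siRNA (siDDX17 1, 2 and 3). The labels give the control genotype as "control plasmid" where the methods name a nontargeting siRNA, the harvest at 48 h is stated for RT–qPCR only, and the study calls the 3 libraries of each group biological replicates. The design has no library without transfection and no library treated with an ER stress agent.

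Library totals ran from 30658136 to 39182371 counted reads, and tested ER genes had between 338 and 42626 reads in a library. For genes near the lower end, such as ERN1, differences between libraries of 1 group can be as small as counting error. Levels are given as CPM, the count of a gene scaled to a common library total, here after TMM scaling, and differences as log2 fold changes of siDDX17 over siCtrl with their standard errors, from the quasi-likelihood test of edgeR with Benjamini-Hochberg adjustment over all tested genes. The knockdown was visible in every siDDX17 library, with DDX17 between 30.4 and 32.1 CPM there and between 177 and 206 CPM in the controls. Of 10 epithelial and A549 markers, 7 were at 10 FPKM or more in every library, KRT8 and KRT18 among them, while EPCAM lay between 0.34 and 1.14 FPKM. The 3 alveolar type II markers in the FPKM table (SFTPB, SFTPC and NKX2-1) reached at most 0.16 FPKM, and 7 of 8 measured markers of other cell types stayed below 1 FPKM in every library. In bulk RNA, fewer cells expressing a gene and less of its RNA per cell cannot be told apart.

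The promoters of several of these genes carry the elements through which the ER stress response is known to act, and exact matches to them are shown. Only exact matches near a start were counted, so a gene without one can still be a target of the response. RefSeq promoter windows (GRCh38.p14, 250 bases before to 50 bases after a start) were found for 31 of the 34 genes in 38 windows, without PDIA3, DERL1 and DERL3. The ER stress response element, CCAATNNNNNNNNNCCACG, to which ATF6 and the CCAAT factor NF-Y bind, was searched on both strands. It occurred in 27 of 35116 windows (0.0769%), belonging to 25 genes, and 7 of these 25 were HSPA5, HSP90B1, CALR, CANX, CRELD2, PDIA6 and XBP1. The other genes with a match included ALG12, ERO1B, FICD and SERP1, which also act in or at the ER. They also included genes not chosen for such a role, among them FRG2, GLRA2, NLRP4, SYNPO, TRIM5 and ZNF17. The elements read as follows on the strand that matches, with the fixed letters in capitals.
HSPA5: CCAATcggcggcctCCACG
XBP1: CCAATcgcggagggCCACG
CRELD2: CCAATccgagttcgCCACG
PDIA6: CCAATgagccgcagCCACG
CANX: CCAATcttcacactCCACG
CALR: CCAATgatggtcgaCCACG
HSP90B1, distal: CCAATcggaaggagCCACG
HSP90B1, proximal: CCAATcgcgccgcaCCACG

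A shorter form, ER stress response element II (ATTGGNCCACG), was in 19 windows (0.0541%), and its 3 members of the list were HERPUD1, SDF2L1 and HYOU1, the last with 2 copies. The core of the unfolded protein response element, TGACGTG, was in 692 windows (1.97%) and among the ER genes only in that of HYOU1, where it overlaps 1 of the 2 copies.
HERPUD1: ATTGGgCCACG
SDF2L1: ATTGGtCCACG
HYOU1: ATTGGaCCACG

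Most of the window upstream of the start is given for 2 genes, HSPA5, whose protein is the chaperone that the sensors themselves bind, and HERPUD1, the gene that varied most between the control libraries. Both are printed from 250 to 41 bases before the start on the strand of the gene, HSPA5 at chr9:125241384-125241593 (minus strand) and HERPUD1 at chr16:56931892-56932101 (plus strand), with the fixed letters of the element in capitals. The element ends 48 bases before the start in HSPA5 and 107 bases before it in HERPUD1.
HSPA5: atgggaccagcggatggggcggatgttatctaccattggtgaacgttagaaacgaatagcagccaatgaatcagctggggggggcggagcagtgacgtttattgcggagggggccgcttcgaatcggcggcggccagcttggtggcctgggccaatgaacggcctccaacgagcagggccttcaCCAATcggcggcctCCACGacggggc
HERPUD1: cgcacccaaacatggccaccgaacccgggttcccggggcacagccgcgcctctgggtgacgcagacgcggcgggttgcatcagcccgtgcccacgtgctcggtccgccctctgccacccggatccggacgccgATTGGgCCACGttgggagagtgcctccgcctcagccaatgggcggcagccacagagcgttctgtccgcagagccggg

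The ER genes spread over a wide range of levels. On the per-length scale of FPKM, the mean of the siCtrl libraries was 445 for CALR, 318 for P4HB, 178 for HSP90B1, 171 for HSPA5 and 164 for PDIA6, the abundant chaperones and isomerases of the ER lumen. The mean of HSPA5 was raised by siCtrl 1, at 282 FPKM against 126 and 105 FPKM in siCtrl 2 and 3. The sensors were far lower, at 3.71 FPKM for EIF2AK3, 3.46 for ATF6 and 1.92 for ERN1. DERL3, a member of the derlin family that is abundant in few tissues, had between 1 and 7 reads in a library and was not tested, which left 33 tested genes.

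In most of these genes siCtrl 1 differed from siCtrl 2 and 3, which were closer to each other (median ratio of siCtrl 2 to siCtrl 3 of 1.06). In siCtrl 1, 28 of the 33 genes were at their highest control level, against 39.8% of all tested genes, and 24 of the 33 exceeded 1.2 times the mean of siCtrl 2 and 3, against 17.6% of all genes. None of the 33 was below that mean by over 1.2 times, against 13.0% of all genes. The ratio of siCtrl 1 to the mean of siCtrl 2 and 3 had a median of 1.46 over the ER genes and ran from 0.926 for SEC61B to 4.57 for HERPUD1. It was 2.82 for DNAJB9, 2.36 for HSPA5, 2.13 for SYVN1, 1.91 for ERN1, 1.9 for SDF2L1 and 1.89 for EIF2AK3, so that a chaperone, a ubiquitin ligase and 2 of the 3 sensors stood high in the same library. SIL1, P4HB, ERO1L, ATF6, CREB3, DERL1, SEC61B and WFS1 differed little, with ratios from 0.926 to 1.06. The remaining control libraries also differed from each other in 7 of the 33 genes, in which siCtrl 2 exceeded siCtrl 3 by over 1.2 times (11.9% of all genes), with HERPUD1 at 2.93 times. What made siCtrl 1 stand apart was not tested, and each comparison is therefore given with and without it.

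**Figure D1:**
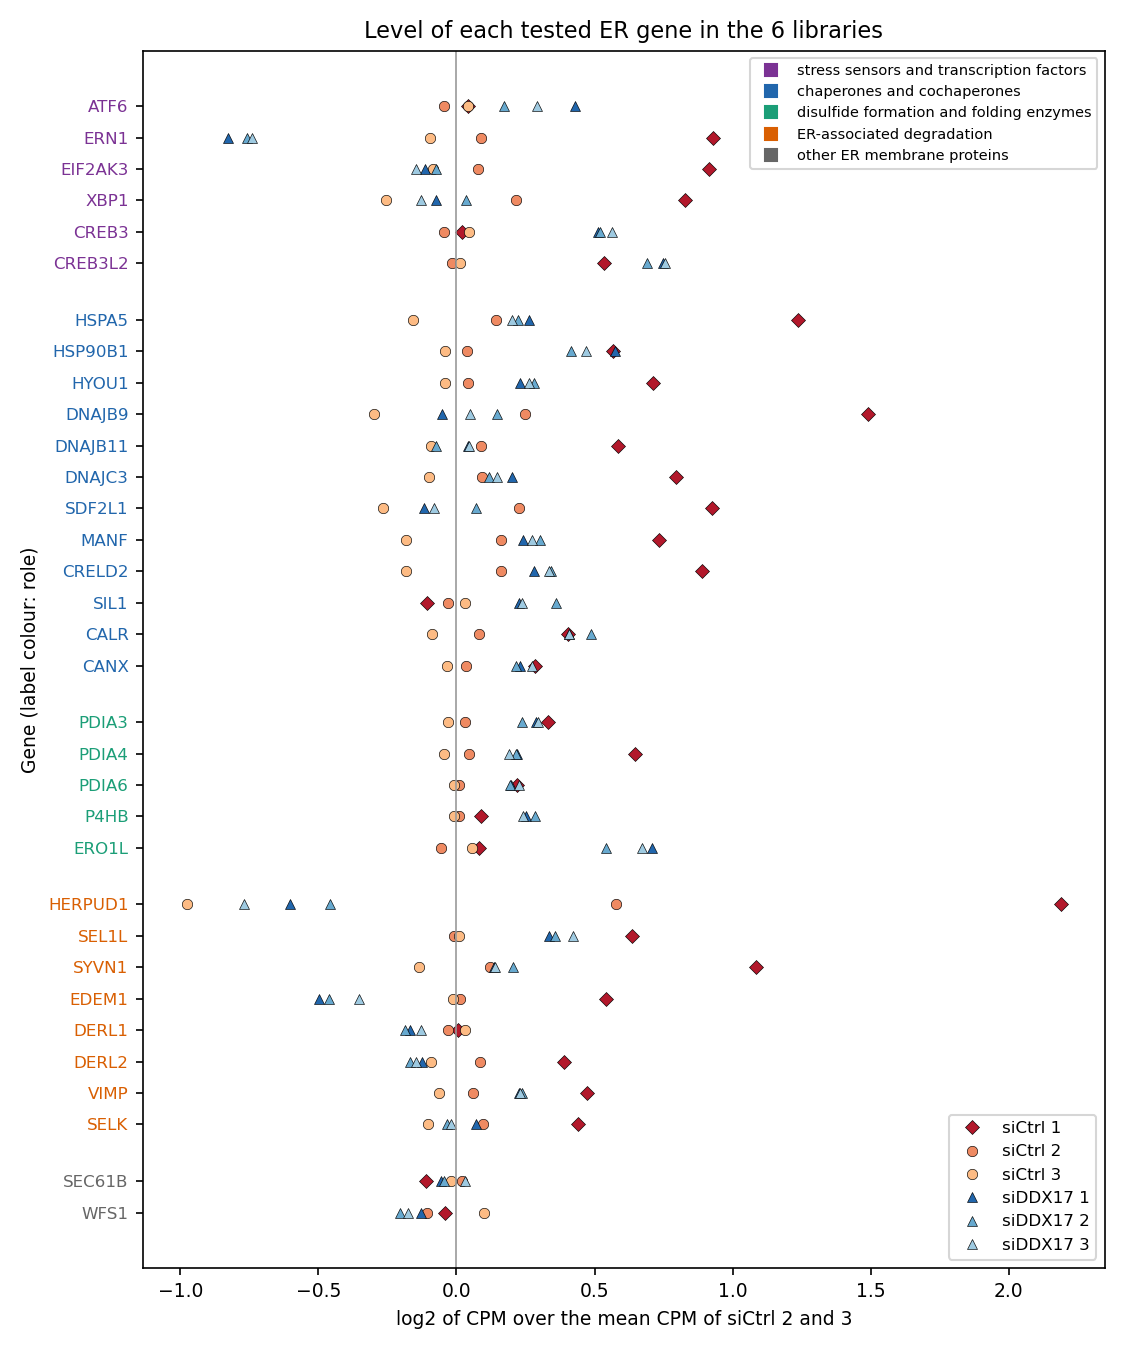
Level of the 33 tested ER genes in each library, as the log2 of the CPM over the mean CPM of siCtrl 2 and 3, grouped by role (label colour). Diamonds are siCtrl 1, circles siCtrl 2 and 3 and triangles the siDDX17 libraries. The diamond is the highest control symbol in 28 of 33 rows, and for 21 genes the siDDX17 triangles overlap the range of the 3 controls.

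By role, siCtrl 1 was over 1.2 times the mean of the other controls (17.6% of all genes) in 11 of 12 chaperones (median ratio 1.65), 7 of 8 degradation genes (1.42), 4 of 6 sensors and transcription factors (1.6), 2 of 5 folding enzymes (1.16) and neither of the other membrane proteins. Among genes with a promoter window, the 10 with either ER stress response element had ratios from 1.16 to 4.57 with a median of 1.71, and 9 of them exceeded 1.2. The 21 without an element ranged from 0.926 to 2.82 with a median of 1.45, and 14 exceeded 1.2. The ranges of the sets overlapped, and genes without an element, such as DNAJB9 and SYVN1, were also high in siCtrl 1.

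Against all 3 controls, 7 of the 33 ER genes rose in siDDX17 cells (21 did not pass), while 24.5% of all tested genes rose. They were ERO1L, CREB3L2, CREB3, SIL1, CALR, ATF6 and P4HB. The 5 that fell were HERPUD1, ERN1, EDEM1, DERL2 and DERL1, while 24.3% of all tested genes fell. Both shares, 7 and 5 of 33, lay below those of all genes. The median log2 fold change was -0.04 over the ER genes and 0.01 over all genes. In CPM, the siDDX17 libraries all lay above all siCtrl libraries for 7 ER genes (28.8% of all genes) and all below them for 5 (27.7% of all genes). The latter 5 included WFS1, which did not pass (adjusted p = 0.0902), and not HERPUD1, whose groups overlapped. At the limits used in the study, an unadjusted p under 0.01 and a fold change over 1.5, 1 ER gene rose (11.0% of all genes) and 3 fell (8.03% of all genes). The 3 that fell were HERPUD1, ERN1 and EDEM1. Here and below, calls at these limits come from the fits made here and not from the published list, which holds fewer genes in each direction. The paper names an ER process for unfolded proteins among those enriched in its downregulated genes. That enrichment was not tested here.

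Without siCtrl 1, the picture of the folding machinery changed. Then 19 of the 33 genes rose and 6 fell, against 26.4% and 27.0% of all 15996 genes tested in this fit, and 8 did not pass. The 12 calls gained upward were HSPA5, HSP90B1, HYOU1, MANF, CRELD2, CANX, PDIA3, PDIA4, PDIA6, SEL1L, SYVN1 and VIMP, and the 1 gained downward was WFS1. All 12 genes called with 6 libraries kept their call and direction. The log2 fold change was higher without siCtrl 1 for 28 genes, and its sign differed between the fits for 9 genes. Over all 33 genes the median change was 0.19, and for HERPUD1 it was 1.14. A control above the others lowers the log2 fold change, so these shifts restate the height of siCtrl 1. The median over the ER genes became 0.20, while that over all genes was 0.00. At the limits of the study, ERO1L and CREB3L2 rose (11.1% of all genes) and ERN1 and HERPUD1 fell (7.83% of all genes). The gains upward were small, with log2 fold changes between 0.16 and 0.48, and rest on a control group of 2 libraries.

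**Figure D2:**
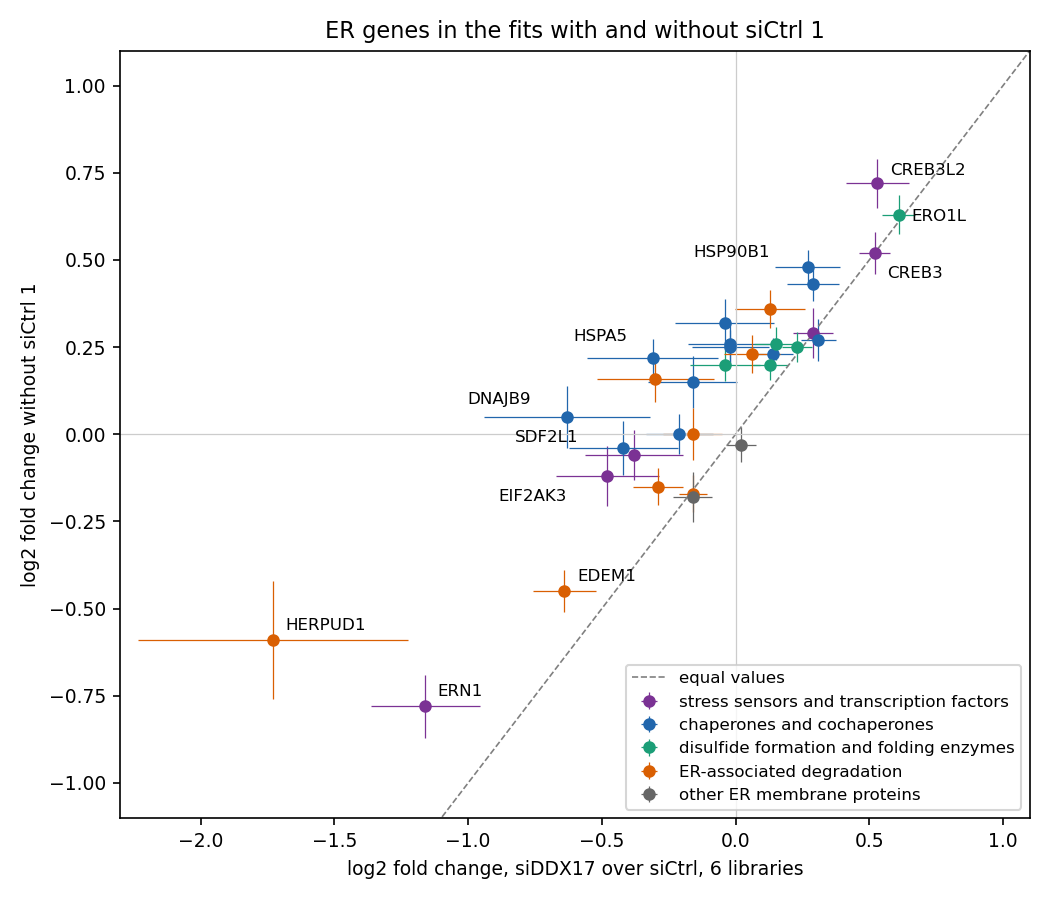
Log2 fold change of each tested ER gene with 6 libraries (horizontal axis) and without siCtrl 1 (vertical axis), with standard errors as bars and colours for the roles. Most points lie above the dashed line of equal values, as 28 of 33 do in the fits, and HERPUD1 lies farthest from it, at -1.73 and -0.59.

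The scale mattered as well. With library size in place of TMM, the median of all tested genes moved from 0.01 to 0.13 on the log2 scale, and 12 ER genes rose and 3 fell. Without siCtrl 1 the same change moved it from 0.00 to 0.16, and 22 rose and 2 fell. Changes of about this size, in either direction, are therefore to be read relative to the bulk of all genes. ERN1 and EDEM1 fell, and ERO1L, CREB3, CREB3L2, ATF6, SIL1, CALR and P4HB rose, in all 4 of these fits.

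The sensors did not move as a group. ERN1 (IRE1, chromosome 17, 64039080 to 64130819, GENCODE 44) is the kinase and endoribonuclease that splices XBP1. In the order of library numbers, which is kept for every gene that follows, it was at 29.9, 16.7 and 14.7 CPM with siCtrl and at 8.85, 9.27 and 9.40 CPM with siDDX17. All siDDX17 libraries lay below all controls, also below the lower pair of controls. It fell with a log2 fold change of -1.16 (SE 0.203, adjusted p = 0.000379), and without siCtrl 1 by less, -0.78 (SE 0.091, adjusted p = 2.66e-09).

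EIF2AK3 (PERK), the sensor kinase that acts on translation, was at 28.4, 15.9 and 14.2 CPM with siCtrl and at 13.9, 14.3 and 13.6 CPM with siDDX17. Only siCtrl 1 stood clearly above the rest, and siCtrl 3 lay within the range of the siDDX17 libraries. Its log2 fold change was -0.48 (SE 0.192, adjusted p = 0.052) with 6 libraries and -0.12 (SE 0.0856, adjusted p = 0.264) without siCtrl 1. With 6 libraries it was close to the threshold, since it passed with RLE scaling (adjusted p = 0.0454), a replicate block (0.0441), the exact test of edgeR (0.0312) or no filter on counts (1.00e-06), and also without siCtrl 2 (0.0256) or siCtrl 3 (0.00313), but not by DESeq2 (0.215).

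ATF6, the sensor that is itself a transcription factor, was at 28.9, 27.2 and 28.9 CPM with siCtrl and at 37.8, 31.6 and 34.3 CPM with siDDX17, with no overlap. It rose with a log2 fold change of 0.29 (SE 0.0749, adjusted p = 0.0064), and 0.29 again without siCtrl 1 (adjusted p = 0.000737). Thus ERN1 fell, ATF6 rose and EIF2AK3 lay near the threshold, and in ATF6 no control library stood apart.

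XBP1, the transcription factor made from the mRNA that IRE1 splices, was at 194, 127 and 91.7 CPM with siCtrl and at 104, 112 and 100.1 CPM with siDDX17. The siDDX17 libraries lay between siCtrl 3 and siCtrl 2. The log2 fold change of -0.38 (SE 0.183, adjusted p = 0.0992) was -0.06 (SE 0.0716, adjusted p = 0.506) without siCtrl 1. With 6 libraries and no filter on low counts XBP1 fell (-0.39, adjusted p = 4.72e-08), and it also fell when siCtrl 3 was left out.

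CREB3 and CREB3L2 encode membrane-bound transcription factors that are released by cleavage in the Golgi, as ATF6 is. CREB3 was at 37.7, 36.0 and 38.3 CPM with siCtrl and at 53.0, 53.3 and 54.9 CPM with siDDX17. Its groups were apart and each was tight, and its log2 fold change was 0.52 in both fits (SE 0.0574, adjusted p = 6.79e-06 with 6 libraries). CREB3L2 was at 29.1, 19.9 and 20.3 CPM with siCtrl and at 33.8, 32.4 and 33.9 CPM with siDDX17, and here siCtrl 1 came closer to the siDDX17 level than the other controls did. It rose by 0.53 (SE 0.117, adjusted p = 0.00215) and without siCtrl 1 by 0.72 (SE 0.0696, adjusted p = 3.26e-11) on the log2 scale. Among relatives outside the list, CREB3L1 (-0.57, adjusted p = 0.0146) and CREB3L3 (-1.02, adjusted p = 0.0028) fell with 6 libraries, and also without siCtrl 1. Each had at most 123 reads in a library. CREB3L4 did not pass with 6 libraries (0.15, adjusted p = 0.235).

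**Figure D3:**
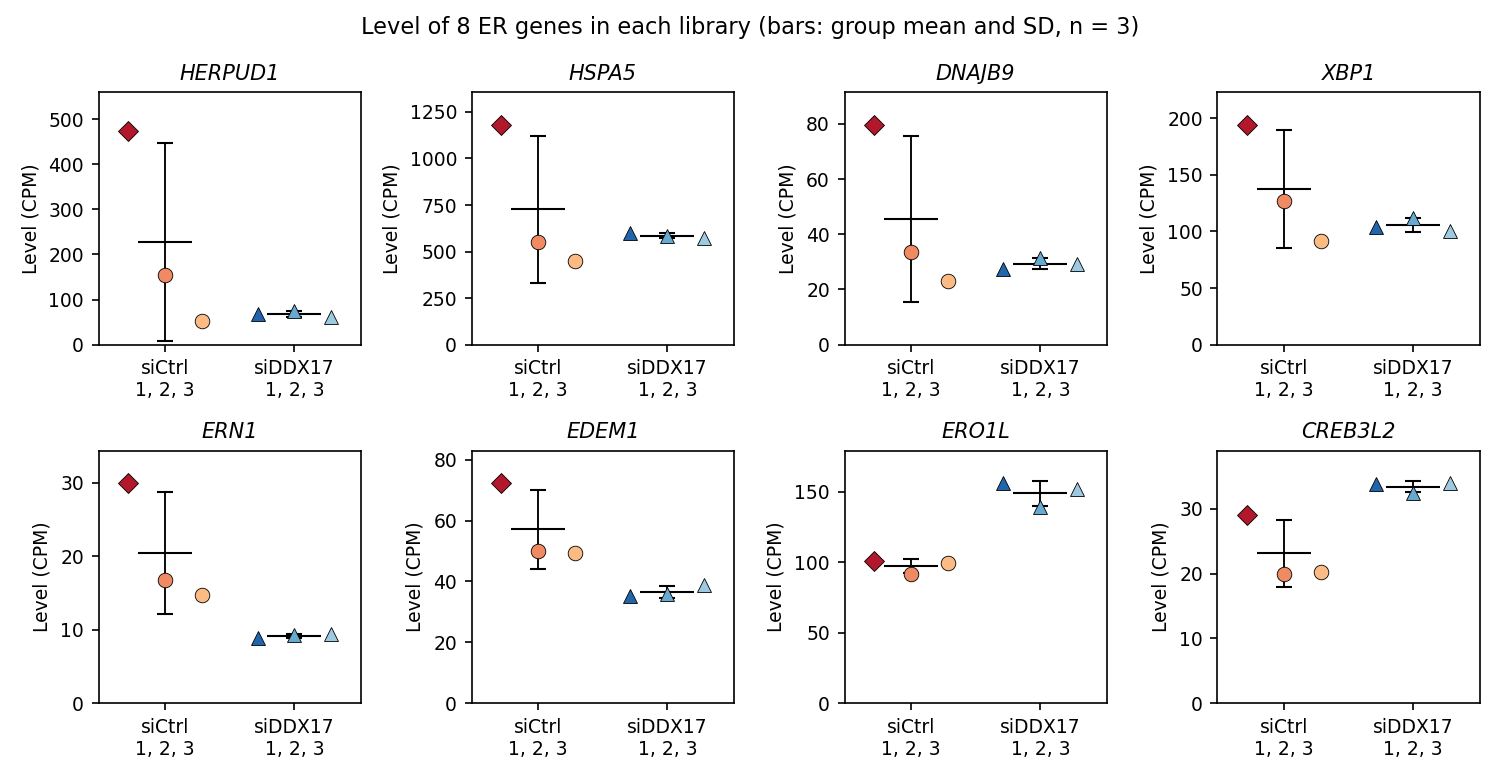
Level in CPM (vertical axes, from 0) of 8 ER genes in the 3 siCtrl and 3 siDDX17 libraries, with the group mean and SD (n = 3) as bars. The diamond, siCtrl 1, is the highest control for all 8 genes, by the least for ERO1L, whose controls lie between 91.8 and 101 CPM and whose siDDX17 libraries lie between 139 and 156 CPM.

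For 11 of the 12 chaperones and cochaperones siCtrl 1 was the highest control, and for 9 of these 11 it was the highest of all 6 libraries. HSPA5 (BiP, chromosome 9, 125234853 to 125241382), the main Hsp70 of the ER, was at 1180, 552 and 448 CPM with siCtrl and at 600.2, 583 and 575 CPM with siDDX17. The siDDX17 libraries were all below siCtrl 1 and all above siCtrl 2 and 3. Its log2 fold change was therefore -0.31 (SE 0.246, adjusted p = 0.32) with 6 libraries and 0.22 (SE 0.0547, adjusted p = 0.000813) without siCtrl 1. Leaving out siCtrl 3 instead gave a fall, -0.57 with an adjusted p of 0.0248, so the direction for HSPA5 was set by which control library was kept.

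HSP90B1 (GRP94), the Hsp90 of the ER, was at 708, 491 and 465 CPM with siCtrl and at 712, 638 and 662 CPM with siDDX17. Its log2 fold change was 0.27 (SE 0.121, adjusted p = 0.0774) with 6 libraries and 0.48 (SE 0.0489, adjusted p = 1.14e-10) without siCtrl 1, the largest among the 12 gained calls. HYOU1, an Hsp110-type partner of BiP, was at 194, 122 and 115 CPM with siCtrl and at 139, 144 and 142 CPM with siDDX17. As for HSPA5, the siDDX17 libraries lay between siCtrl 1 and the other controls, and its log2 fold changes were -0.02 (adjusted p = 0.92) and 0.25 (adjusted p = 6.25e-05).

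The J-domain cochaperones of BiP did not pass in either fit. DNAJB9 (ERdj4), known to hold IRE1 in its inactive state, was at 79.6, 33.6 and 23 CPM with siCtrl and at 27.3, 31.3 and 29.3 CPM with siDDX17. DNAJB11 (ERdj3) was at 119, 84.3 and 74.4 CPM against 81.7, 75.4 and 81.9 CPM. DNAJC3 (P58IPK), an inhibitor of PERK and its relatives, was at 40, 24.6 and 21.5 CPM against 26.5, 25 and 25.5 CPM. In all 3 genes the controls other than siCtrl 1 were close to the siDDX17 libraries, overlapping them for DNAJB9 and DNAJB11. Their log2 fold changes of -0.63, -0.21 and -0.16 with 6 libraries (adjusted p = 0.108, 0.177 and 0.45) became 0.05, -0.00 and 0.15 (adjusted p = 0.643, 0.983 and 0.0839) without siCtrl 1. Leaving out siCtrl 3 instead, DNAJB9 (-0.96, adjusted p = 0.00218) and DNAJB11 (-0.35, adjusted p = 0.013) fell. DNAJC3 again did not pass (-0.34, adjusted p = 0.0571).

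SDF2L1, which works with DNAJB11 to keep substrates bound to BiP, likewise overlapped its lower controls, with 98.8, 60.8 and 43.2 CPM with siCtrl and 47.9, 54.6 and 49.2 CPM with siDDX17. Its log2 fold change was -0.42 (adjusted p = 0.105) with 6 libraries and -0.04 (adjusted p = 0.68) without siCtrl 1. Leaving out siCtrl 3 instead gave a fall (-0.66, adjusted p = 0.00105). MANF and CRELD2, secreted or lumenal proteins that are induced by ER stress, rose without siCtrl 1 by 0.26 (adjusted p = 0.000393) and 0.32 (adjusted p = 0.000185) on the log2 scale. With 6 libraries their values were -0.02 (adjusted p = 0.935) and -0.04 (adjusted p = 0.872). MANF was at 186, 125 and 98.6 CPM with siCtrl and at 132, 138 and 135 CPM with siDDX17. CRELD2 was at 66.0, 39.9 and 31.4 CPM with siCtrl and at 43.3, 45.2 and 45.0 CPM with siDDX17. Both genes thus showed the order of HSPA5, with siCtrl 1 above and siCtrl 2 and 3 below the siDDX17 libraries.

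SIL1, the nucleotide exchange factor of BiP, was an exception, since siCtrl 1 was its lowest control. It was at 37.4, 39.4 and 41.1 CPM with siCtrl and at 47.1, 51.7 and 47.5 CPM with siDDX17, without overlap, and rose by 0.31 (SE 0.0638, adjusted p = 0.00121) and by 0.27 without siCtrl 1. CALR and CANX, the lectin chaperones calreticulin and calnexin, hold glycoproteins during folding. CALR, the ER gene with the highest level, was at 1103, 883 and 785 CPM with siCtrl and at 1106, 1169 and 1106 CPM with siDDX17, so that 2 of the siDDX17 libraries were barely above siCtrl 1. It rose by 0.29 (SE 0.0966, adjusted p = 0.0247), a call that was lost when any library other than siCtrl 1 was left out (adjusted p from 0.0576 to 0.106), and by 0.43 (SE 0.048, adjusted p = 1.27e-09) without siCtrl 1. CANX was at 690.2, 579.7 and 553 CPM with siCtrl and at 665, 658 and 685 CPM with siDDX17, with log2 fold changes of 0.14 (adjusted p = 0.142) and 0.23 (adjusted p = 4.49e-05).

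By count, 2 of the 12 chaperones and cochaperones rose with 6 libraries (24.5% of all genes) and 10 did not pass, with a median log2 fold change of -0.03. Without siCtrl 1, 8 of 12 rose (26.4% of all genes), 4 did not pass and the median was 0.24. The 4 that did not pass were DNAJB9, DNAJB11, DNAJC3 and SDF2L1. With 6 libraries and no filter on low counts, HSPA5 (adjusted p = 7.49e-07), DNAJB9 (1.05e-15), DNAJB11 (0.00661) and SDF2L1 (3.03e-08) fell by the same edgeR test, at nearly the same log2 fold changes. In each of them the siDDX17 libraries overlapped the range of the controls. DESeq2 called none of them (adjusted p = 0.625, 0.359, 0.427 and 0.358 in the same order).

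Among the folding enzymes, ERO1L and P4HB rose in both fits. ERO1L (now ERO1A), the oxidase that drives disulfide formation, was at 101, 91.8 and 99.2 CPM with siCtrl and at 156, 139 and 152 CPM with siDDX17. Its groups were well apart and the control libraries alike, and it rose by 0.61 (SE 0.0625, adjusted p = 3.54e-06), or 1.53-fold, and by 0.63 without siCtrl 1. P4HB, the protein disulfide isomerase that ERO1L oxidizes, was at 942, 892 and 879.8 CPM with siCtrl and at 1056, 1078 and 1048 CPM with siDDX17. It rose by 0.23 (SE 0.0551, adjusted p = 0.00365) and by 0.25 without siCtrl 1, a small change in which the groups did not overlap.

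The related isomerases PDIA3, which acts with the lectin chaperones, PDIA4 and PDIA6 did not pass with 6 libraries. PDIA3 was at 451, 366 and 350.2 CPM with siCtrl and at 437, 422 and 439.9 CPM with siDDX17. PDIA4 was at 446, 294 and 276 CPM against 332, 331 and 325 CPM. PDIA6 was at 688, 595 and 587 CPM against 678, 676 and 692 CPM. In each, siCtrl 1 overlapped or exceeded the siDDX17 libraries while the other controls lay below them. Their log2 fold changes were 0.15, -0.04 and 0.13 (adjusted p = 0.137, 0.815 and 0.121), and without siCtrl 1 they rose by 0.26, 0.20 and 0.20 (adjusted p = 8.42e-06, 0.000535 and 0.00031). All 5 folding enzymes then rose (26.4% of all genes), with a median of 0.25 against 0.15 in the fit of 6 libraries.

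With 6 libraries 4 of the 8 degradation genes fell (24.3% of all genes) and the other 4 did not pass, and a difference between roles was not tested. HERPUD1 (chromosome 16, 56932142 to 56944864), a membrane protein that gathers the ubiquitin ligase complex and is strongly induced by ER stress, was at 474, 155 and 52.8 CPM with siCtrl and at 68.4, 75.7 and 61.0 CPM with siDDX17. The controls spanned the siDDX17 libraries, since siCtrl 3 lay below all of them and siCtrl 1 and 2 above. HERPUD1 fell by 1.73 on the log2 scale (SE 0.505, adjusted p = 0.0118), and by 0.59 (SE 0.17, adjusted p = 0.00331) without siCtrl 1. With its groups overlapping, the call was lost by DESeq2 (adjusted p = 0.0733), by limma on FPKM in all 3 settings (adjusted p from 0.197 to 0.421), when siDDX17 2 or siDDX17 3 was left out (adjusted p = 0.055 and 0.0515), and without siCtrl 1 when scaled by library size only (-0.44, adjusted p = 0.0736).

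EDEM1, a lectin that hands misfolded glycoproteins to degradation, was at 72.2, 50.0 and 49.2 CPM with siCtrl and at 35.1, 36.0 and 38.8 CPM with siDDX17. All siDDX17 libraries were below all controls, and it fell by 0.64 (SE 0.119, adjusted p = 0.000588) and by 0.45 (SE 0.0598, adjusted p = 5.37e-08) without siCtrl 1. DERL1 and DERL2 are derlins, membrane proteins of the channel through which substrates leave the ER. DERL1 was at 88.4, 86.1 and 89.8 CPM with siCtrl and at 78.2, 77.2 and 80.4 CPM with siDDX17. DERL2 was at 129.7, 105 and 92.8 CPM against 90.6, 88.1 and 89.4 CPM. Neither gene's groups overlapped, but the changes were small, -0.16 (adjusted p = 0.0204) and -0.29 (adjusted p = 0.022), and -0.17 and -0.15 without siCtrl 1. With library size alone they were -0.04 and -0.17 (adjusted p = 0.558 and 0.21), and -0.02 and 0.00 without siCtrl 1 as well. Both calls were also lost when any 1 siDDX17 library was left out (adjusted p from 0.0505 to 0.0862). The third derlin, DERL3, was at 0.207, 0.105 and 0.16 CPM with siCtrl and at 0.0778, 0.0274 and 0.026 CPM with siDDX17, too few reads for a test.

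With 6 libraries and the filter on low counts, the core genes of the same ligase complex did not pass. SEL1L, the adaptor, was at 98.4, 62.9 and 63.7 CPM with siCtrl and at 79.9, 81.0 and 84.8 CPM with siDDX17, and SYVN1 (HRD1), the ubiquitin ligase, was at 75.5, 38.7 and 32.4 CPM against 39.1, 41 and 39.2 CPM. Here too siCtrl 1 was above and the other controls below the siDDX17 libraries. SEL1L had log2 fold changes of 0.13 (adjusted p = 0.451) and 0.36 (adjusted p = 5.36e-07), and SYVN1 of -0.30 (adjusted p = 0.283) and 0.16 (adjusted p = 0.0416). With 6 libraries and no filter on low counts SYVN1 fell (adjusted p = 0.000254), and it also fell when siCtrl 3 was left out. VIMP (SELENOS), a selenoprotein that recruits the ATPase p97 to the derlins, was at 85.5, 64.2 and 58.9 CPM with siCtrl and at 72.1, 72.6 and 72.2 CPM with siDDX17, and rose only without siCtrl 1 (0.23, adjusted p = 0.000666, against 0.06, adjusted p = 0.678). SELK (SELENOK), another selenoprotein of the complex, was at 32.9, 25.9 and 22.6 CPM against 25.5, 23.7 and 23.9 CPM and passed in neither fit. When siCtrl 3 was left out, SELK fell.

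Without siCtrl 1, 3 of the 8 degradation genes rose and 4 fell (26.4% and 27.0% of all genes), with a median of -0.08 against -0.23 in the fit of 6 libraries. Of the other membrane proteins, SEC61B, a subunit of the translocation channel, was at 107, 117 and 114 CPM with siCtrl and at 111, 112 and 118 CPM with siDDX17, with overlapping groups and log2 fold changes of 0.02 and -0.03. WFS1 (wolframin), a regulator of ER calcium and of ATF6, was at 27.3, 26.1 and 30.1 CPM against 25.7, 24.4 and 24.9 CPM. It had a log2 fold change of -0.16 (adjusted p = 0.0902) and fell by 0.18 without siCtrl 1 (adjusted p = 0.0306), a call absent with library size alone (-0.03).

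A further 98 ER genes outside the list, 97 of them tested, describe the surroundings of these pathways. With 6 libraries 26 rose and 22 fell, and without siCtrl 1 33 rose and 25 fell, with medians of 0.01 and 0.04. Among all genes 24.5% rose and 24.3% fell with 6 libraries, and 26.4% and 27.0% without siCtrl 1. The totals with 6 libraries were thus near the background, while without siCtrl 1 the share that rose was above it. They stood out less in siCtrl 1, where 13 of 97 exceeded 1.2 times the mean of the other controls (17.6% of all genes) and the median ratio was 1.04. By group, 14 of 34 genes of folding and glycoprotein quality control rose and 7 fell, 3 of 27 degradation genes rose and 7 fell, 6 of 22 genes of translocation and signal peptide processing rose and 5 fell, and 3 of 14 proteases and stress regulators rose and 3 fell.

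The largest fall among them was in SEC61A1, which encodes the pore of the translocation channel. It was at 253, 232 and 236 CPM with siCtrl and at 103, 108 and 102 CPM with siDDX17, and fell by 1.2 (SE 0.0574, adjusted p = 4.91e-09) and by 1.18 without siCtrl 1. Its partner SEC61B, in the list, did not pass the test (0.02), and its paralog SEC61A2 fell by 0.71 (11.0, 10.8 and 10.8 CPM against 6.77, 6.28 and 6.80 CPM). SRP14, of the signal recognition particle, fell by 0.56, the ubiquitin-conjugating enzyme UBE2J2 by 0.60 and the prolyl isomerase FKBP14 by 0.58. In each of these genes the groups were apart and siCtrl 1 was within 1.19 times the mean of the other controls.

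The rises named next are the largest among the further ER genes that averaged at least 3 log2 CPM. TMX3, a membrane-bound thioredoxin-like oxidoreductase, was at 17.1, 14.6 and 16.6 CPM with siCtrl and at 31.7, 29.7 and 32.5 CPM with siDDX17 (log2 fold change 0.96, SE 0.0786, adjusted p = 5.03e-07). TMX4 and TXNDC12, of the same thioredoxin-like family, rose by 0.69 and 0.68, and GANAB, the catalytic subunit of glucosidase II that trims glycans for the lectin chaperones, rose by 0.72. NFE2L1, an ER-anchored transcription factor for proteasome genes, rose by 0.78, from 114, 96.1 and 104 CPM to 183, 177 and 181 CPM. Leaving out siCtrl 1 moved these log2 fold changes by little, to 0.99, 0.65, 0.60, 0.76 and 0.83.

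Stress genes outside the ER differed between the control libraries as well. Of 23 genes of ATF4 and the integrated stress response, 15 exceeded 1.2 times the mean of the other controls in siCtrl 1 (17.6% of all genes), 14 fell and 1 rose with 6 libraries (24.3% and 24.5% of all genes), and 15 fell and 2 rose without siCtrl 1 (27.0% and 26.4% of all genes), with medians of -0.42 and -0.24. ATF4 was at 608, 485 and 379 CPM with siCtrl and at 377, 375 and 363 CPM with siDDX17, and DDIT3 (CHOP), a death-promoting target of PERK signalling, at 124, 44.7 and 6.70 CPM against 16.6, 15.6 and 13.5 CPM. DDIT3 thus had the order of HERPUD1, with siCtrl 3 below and siCtrl 1 and 2 above the siDDX17 libraries. Of 26 cytosolic heat shock chaperones, 11 were lower in siCtrl 1 by over 1.2 times (13.0% of all genes) and 2 were higher, with HSPA8 at 929 CPM in siCtrl 1 against 1677 and 1845 CPM in siCtrl 2 and 3 and 1755 to 1888 CPM with siDDX17. The cytosolic list was thus lower in the library in which the ER list was higher.

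**Figure D4:**
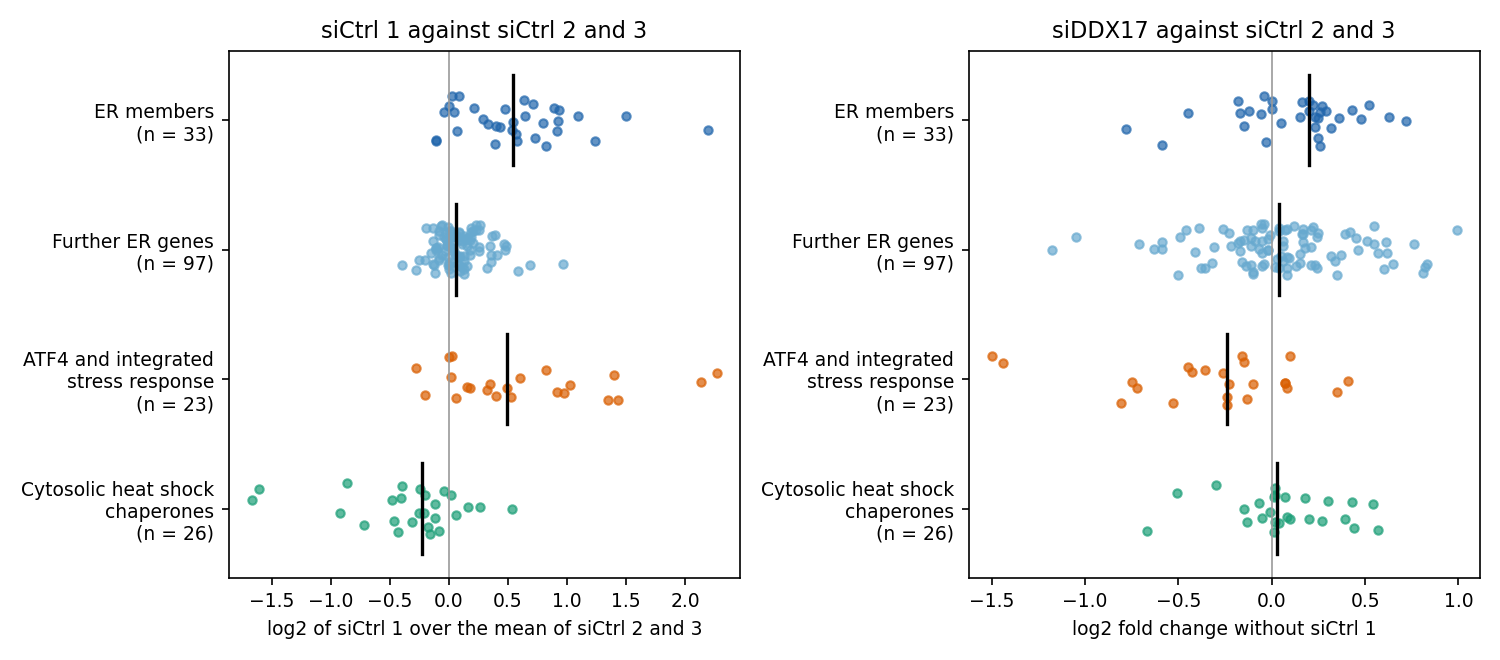
Each point is a gene of 4 lists, with vertical bars at the list medians. The left panel plots the log2 ratio of siCtrl 1 to the mean of siCtrl 2 and 3, which is above 0 for most ER members (n = 33) and below 0 for most cytosolic heat shock chaperones (n = 26), and the right panel the log2 fold change of siDDX17 over siCtrl 2 and 3, whose medians are 0.20 for the ER members, 0.04 for the further ER genes, -0.24 for the ATF4 list and 0.03 for the cytosolic chaperones.

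The calls of ERN1 and EDEM1 downward and of ERO1L, CREB3, CREB3L2, ATF6, SIL1 and P4HB upward held without any 1 of the libraries, that of ATF6 with an adjusted p of up to 0.047. The smallest p that an exact permutation test of 3 against 3 libraries can give is 0.1, so the separation of the groups for any 1 gene cannot be tested at 0.05 on its own.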

How the data were processed

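The 6 RNA-seq libraries of A549 cells were grouped by their labels into 3 siCtrl and 3 siDDX17. The authors mapped trimmed reads to GRCh38 with TopHat2 (at most 4 mismatches), and from uniquely mapped reads they calculated and deposited counts per gene and FPKM. The kit keeps strand, but the counting program, its annotation and its strand setting are not given in the sources used here. Counts of overlapping or antisense genes, and of genes with near-identical pseudogenes such as HSP90B1 and PDIA3, are therefore uncertain. The files hold no columns of comparisons.

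Counts of all 29476 genes entered edgeR 4.0.16 (R 4.3.3). TMM scaling and filterByExpr were applied, which kept 15615 genes, and 15996 without siCtrl 1. The quasi-likelihood test was adjusted over all of these by the method of Benjamini and Hochberg. A gene rose or fell at an adjusted p under 0.05, and a standard error is the absolute log2 fold change over the square root of F. The script was tested on simulated data with 200 changed genes. FPKM served to compare genes with each other. Gene coordinates are from GENCODE 44 and sequences from RefSeq (GRCh38.p14).

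The members and lists were chosen with earlier results of these data known. The limit of 1.2 for ratios between control libraries was set after the data were seen. Every list member is named. Of the further ER genes at most 5 are named in each direction, those with the largest log2 fold changes among genes called in both fits and averaging at least 3 log2 CPM. CREB3L1, CREB3L3 and CREB3L4 are named in addition, as relatives of CREB3 and CREB3L2. ATF4, DDIT3 and HSPA8 lead the related lists. The alternatives were DESeq2 1.42.0, the exact test of edgeR, RLE scaling, scaling by library size only, no filter on counts, a filter of 10 counts in each library, a replicate block, limma 3.58.1 on log2(FPKM + 1) with and without a filter and on log2(FPKM + 0.1), a further limit of 1 on the absolute log2 fold change, and leaving out 1 library at a time. Leaving out siCtrl 1 together with scaling by library size was added after seeing the data.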

Additional observations from a re-analysis of the deposited data

How the results depend on the processing

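With 6 libraries 7 ER genes rose and 5 fell. With library size only 12 rose and 3 fell (3 and 1 at the limits of the study), with limma on log2(FPKM + 1) 12 rose and 2 fell (2 and 0, with 2 lower at an unadjusted p under 0.05), and on log2(FPKM + 0.1) 12 rose and 2 fell (3 and 1). With no filter on FPKM, limma called 6 upward and 0 downward (2 and 0 at the limits of the study), with 12 higher and 2 lower at an unadjusted p under 0.05. With no filter on counts 9 rose and 11 fell, the latter with HSPA5, DNAJB9, DNAJB11, SDF2L1, EIF2AK3, XBP1 and SYVN1 added and DERL1 lost. A limit of 1 on the absolute log2 fold change left 0 upward and 2 downward, where edgeR gave 8 and 7 at an unadjusted p under 0.05 without that limit. Without siCtrl 1 and with library size only 22 rose and 2 fell (4 and 1). DESeq2 gave 7 and 4, RLE scaling 7 and 6, the exact test 7 and 6, and at least 10 counts 7 and 5. Leaving out 1 library gave 6 to 19 upward and 2 to 12 downward calls, and 0 to 2 and 2 to 7 at the limits of the study. The 12 downward calls came without siCtrl 3, the 2 without siDDX17 2 or siDDX17 3, the 3 without siDDX17 1, and the 0 at the limits of the study without siCtrl 2 or siDDX17 1 (7 higher in each at an unadjusted p under 0.05). Those 12 were HSPA5, DNAJB9, DNAJB11, SDF2L1, ERN1, EIF2AK3, XBP1, HERPUD1, SYVN1, EDEM1, DERL2 and SELK.

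Some log2 fold changes turned sign. With library size only HYOU1 was 0.10, MANF 0.10, CRELD2 0.07 and PDIA4 0.07. On log2(FPKM + 1), with or without the filter, HYOU1 was 0.14, DNAJC3 0.01, MANF 0.16, CRELD2 0.15 and PDIA4 0.12, and on log2(FPKM + 0.1) 0.15, 0.02, 0.16, 0.16 and 0.12. Without siCtrl 1 they were 0.22 for HSPA5, 0.25 for HYOU1, 0.05 for DNAJB9, 0.15 for DNAJC3, 0.26 for MANF, 0.32 for CRELD2, 0.20 for PDIA4, 0.16 for SYVN1 and -0.03 for SEC61B. With library size only as well they were 0.37 for HSPA5, 0.40 for HYOU1, 0.21 for DNAJB9, 0.15 for DNAJB11, 0.30 for DNAJC3, 0.11 for SDF2L1, 0.42 for MANF, 0.47 for CRELD2, 0.35 for PDIA4, 0.04 for EIF2AK3, 0.09 for XBP1, 0.31 for SYVN1, 0.00 for DERL2 and 0.15 for SELK. With 1 library left out, the lowest values came without siCtrl 3 and were -0.57 for HSPA5, -0.16 for HYOU1, -0.96 for DNAJB9, -0.34 for DNAJC3, -0.21 for MANF, -0.26 for CRELD2, -0.17 for PDIA4 and -0.53 for SYVN1. VIMP ran from -0.05 without siCtrl 3, through -0.00 without siCtrl 2, to 0.23 without siCtrl 1, and SEC61B was -0.01 without siDDX17 3. The causes were not tested. Over all alternatives, 48 values of single genes turned sign and were counted as such whether or not their call changed. Of the values that kept their sign, 430 kept their side of the threshold, 51 gained and 32 lost a call.

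No pairing by replicate number was seen in the levels, where the correlations of same-numbered libraries' deviations were 0.00698, 0.0407 and -0.0564. These correlations cannot show whether same-numbered libraries were prepared together. With the replicate block 8 ER genes rose and 6 fell, 1 and 2 at the limits of the study, and the log2 fold changes of HYOU1 (0.02), MANF (0.03) and CRELD2 (0.02) turned sign. A sample did not always correlate best with its own number. With 3 libraries a group, of which siCtrl 1 differs in most ER genes, small differences are not resolved. Depth also limits them for the least counted members, such as ERN1, and left DERL3 untested.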
